A study of Homo sapiens with 12 samples.

Results

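RNA polymerase II (Pol II) copies protein-coding genes into mRNA, and its subunits are themselves encoded by mRNAs that it makes. The genes described here are 10 of those that encode its subunits, chosen by name from the 22379 genes of the table. They are POLR2A, POLR2B, POLR2C, POLR2D, POLR2E, POLR2F, POLR2G, POLR2H, POLR2I and POLR2K. The rule used no measured value, but earlier results of these data were known when the members were chosen. All 10 had a row. Their transcripts were measured by poly(A) RNA-seq in U2OS, an osteosarcoma line, in 12 libraries that formed 6 groups of 2. Cells received Cas9 with 1 of 3 guides, and were then left without drug (untreated, DMSO) or given 1 µM triptolide for 8 h. The guide was nontargeting (NONT) or was directed at NUP93, a nuclear pore scaffold gene (NUP93-KO), or at EXOSC5, which encodes a subunit of the RNA exosome (EXOSC5-KO). All 6 groups carried the Cas9 plasmid and passed puromycin selection. The knockout groups were transiently transfected pools and not clones, so cells with an intact gene could remain among them. Spike-in RNA was added by cell number, so that values could be read as mRNA per cell.

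Pol II is built around Rpb1 and Rpb2, which together form the active centre, and Rpb1 also carries the long repeat tail whose phosphorylation marks the stages of transcription. Smaller subunits hold the core together, Rpb4 and Rpb7 form a stalk that can detach from it, and several others are also parts of Pol I and Pol III, which make ribosomal and small RNAs. Triptolide binds the XPB helicase of TFIIH, blocks initiation and leads to the degradation of the Rpb1 protein, so mRNAs already made decay without being replaced.

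The guides define the genotypes and are given with the adjacent PAM in capitals, on hg38. The NUP93 guide lay at chr16:56748340-56748359 on the plus strand, with all 20 bases in coding exon 2. The EXOSC5 guide lay at chr19:41397170-41397189 on the plus strand, with 9 of its 20 bases in coding exon 1. The nontargeting guide had 0 exact matches in the genome.
NUP93 guide: gaacttacaggagatccagcAGG
EXOSC5 guide: gaagttcttaccttgcaggaAGG
NONT guide: cggcggtcacgaactccagc

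The first 250 bases before the transcription start are shown for POLR2D and POLR2E, the member with the largest loss under triptolide and a member with a smaller one. Capitals mark GGGCGG (the GC box) and CGGAAG (an ETS core) on either strand. Sequences are from RefSeq on GRCh38.p14, written 5′ to 3′ on the gene's strand. The POLR2D window was chr2:127858156-127858405 and the POLR2E window chr19:1095376-1095625, both on the minus strand.
POLR2D upstream: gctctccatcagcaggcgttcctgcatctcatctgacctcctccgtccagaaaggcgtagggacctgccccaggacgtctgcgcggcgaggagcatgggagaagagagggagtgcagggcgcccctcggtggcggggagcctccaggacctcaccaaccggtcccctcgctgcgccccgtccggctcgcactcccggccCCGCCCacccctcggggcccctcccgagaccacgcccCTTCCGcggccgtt
POLR2E upstream: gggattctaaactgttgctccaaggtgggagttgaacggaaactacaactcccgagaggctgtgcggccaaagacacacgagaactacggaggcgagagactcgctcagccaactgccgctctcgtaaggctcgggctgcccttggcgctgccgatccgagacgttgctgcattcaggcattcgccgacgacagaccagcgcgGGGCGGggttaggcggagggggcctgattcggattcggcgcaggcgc

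RefSeq windows were found for 7 of the 10 members. TATAAA, a common spelling of the TATA box, was in none of these windows and in 10.7% of 35116 windows of all genes. CCAAT was likewise in none of them, against 32.0% of all windows. GGGCGG was in at least 1 window of POLR2A, POLR2B, POLR2D, POLR2E and POLR2H, and in 42.6% of all windows. CGGAAG was in a window of POLR2B, POLR2C, POLR2D, POLR2F and POLR2H, and in 16.5% of all windows. Both strands were searched, and GGGCGG and CGGAAG can overlap at CGG. A member was counted if any of its windows held the sequence, whereas the shares are per window. Both sequences contain CG, which occurred 16 (POLR2F) to 41 (POLR2H) times in the windows of the members. The median over all windows was 11. Both windows shown above hold a GC box, and that of POLR2D also holds the ETS core. POLR2F had no GGGCGG in either of its windows. GGGCGG and CGGAAG were not tested against the loss under triptolide.

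The libraries held about 8.60 M to 11.96 M reads, and the gene sum on the spike-in scale ranged from 4.90 M to 16.4 M. The targeted genes were checked first. Without drug, NUP93 stood at 1395 and 1432 with its own guide and at 1753 and 2489 with the nontargeting one, a log2 difference of −0.56 ± 0.20 (SE) that did not pass the test (limma, adjusted p = 0.926). The EXOSC5 values were 216 and 148 with its own guide and 299 and 481 with the nontargeting one, both untreated, and differed by −1.08 ± 0.29 (SE, limma, adjusted p = 0.151). On the median-gene scale, where each library's median log2 value is subtracted, both passed, at −0.48 for NUP93 (limma adjusted p = 0.0485) and −1.17 for EXOSC5 (limma adjusted p = 0.00588). On that scale NUP93 was also lower in the untreated EXOSC5-KO pool (−0.38, limma adjusted p = 0.0452). Under triptolide EXOSC5 was lower in its own pool on the spike-in scale (−1.42, limma adjusted p = 0.00302), whereas NUP93 was −0.07 there (limma adjusted p = 0.767) and −0.78 on the median-gene scale (limma adjusted p = 0.00193). The mRNA of both targets was thus present in its own knockout pool. Osteoblast-lineage and mesenchymal markers were unevenly present, with VIM from 24275 to 66974, COL1A1 from 15197 to 57588 and SPARC from 7368 to 19756, while SP7 and IBSP were listed at 0 and BGLAP reached 5.68 at most. Of the markers of other cell types, EPCAM was 16.8 to 47.6, CDH1 13.5 to 69.7, PTPRC at most 4.70 and PECAM1 at most 9.99. The 2 untreated NONT libraries stood apart from each other, with a median log2 difference over genes of −0.51 (replicate 1 minus replicate 2), against −0.14 to 0.25 in the other 5 groups.

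POLR2A, which encodes Rpb1, could not be followed by the row that carries its symbol. In untreated cells its value was 4.32 and 43.0 (NONT), 0 and 25.0 (NUP93-KO) and 18.1 and 8.42 (EXOSC5-KO). Under triptolide it was 8.18 and 0 (NONT), 3.23 and 0 (NUP93-KO) and 14.9 and 0 (EXOSC5-KO). These values rest on at most about 24.5 reads in any library, whereas the other 9 members rested on about 304 to 3147 reads each. The treated and untreated libraries overlapped in each genotype, and no fold change is given. The gene lies at chr17:7484366-7514616 on the plus strand of GRCh38 and carries the GENCODE v44 tag for an error of the reference genome, with 1 of its 10 transcripts tagged for a sequence error. None of the 31-base words of its canonical transcript (0%) occurred in transcripts of another gene of that annotation. The part of either in the low values was not tested. Of the table's IDs, 2795 had no match in GENCODE v44, and these were not searched for a further copy of the gene. The mRNA of the subunit that triptolide destroys as a protein was therefore not measured by this row.

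**Figure D1:**
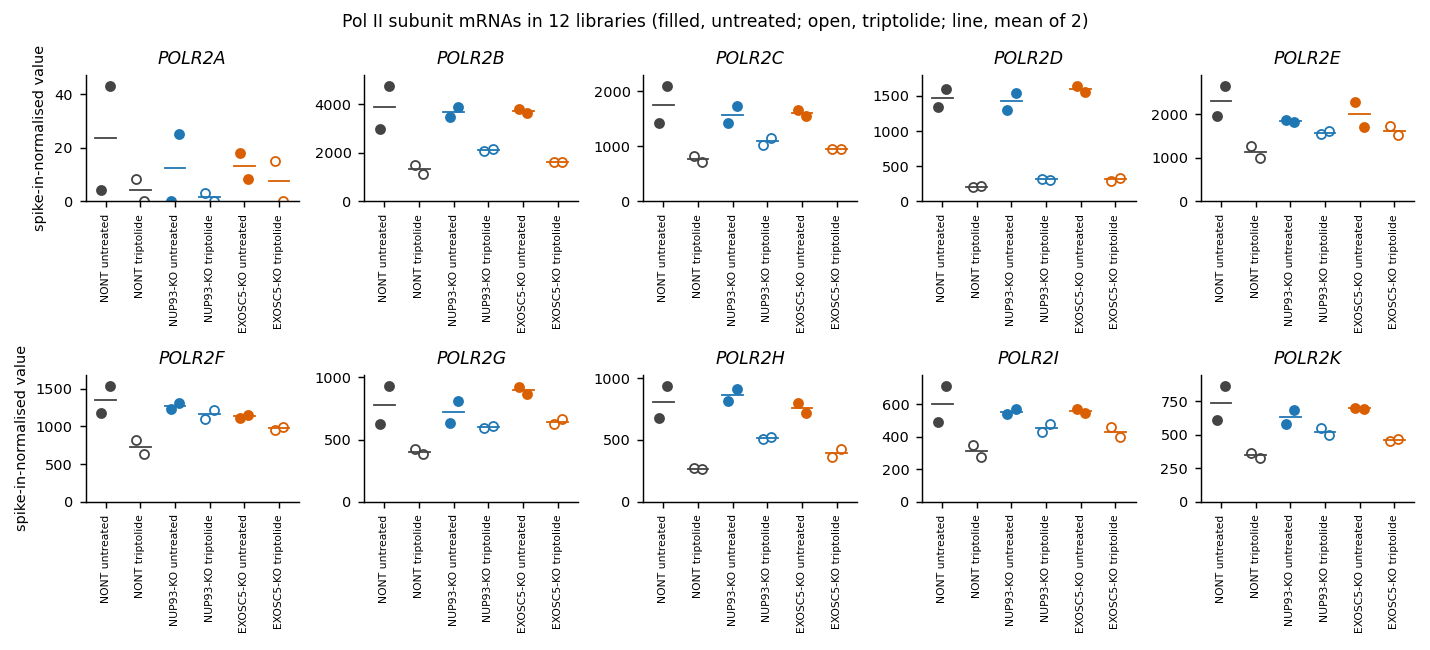
Spike-in-normalised value (vertical axes, each starting at 0) of the 10 members in 12 libraries, by group. Filled points are untreated and open points triptolide-treated libraries, and lines are means of 2. POLR2B to POLR2K lie lower under triptolide, POLR2D most of all, while the POLR2A values stay at or below 43.0.

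Triptolide lowered the mRNAs of the other 9 members in NONT cells, leaving from 0.536 of the untreated level for POLR2F to 0.142 for POLR2D. Of the knockout pools, NUP93-KO had 4 members that passed the test and EXOSC5-KO had 5. POLR2D, which encodes the stalk subunit Rpb4, fell most in each genotype, while its partner POLR2G and the shared subunit gene POLR2F passed the test only in NONT as fitted across all 12 libraries. Of the 10 members, 9 were lower in NONT at an adjusted p under 0.05 (limma over 13811 genes), as were 90% of all genes tested. In NUP93-KO it was 4 of 10 against 55.1% of genes, and in EXOSC5-KO 5 of 10 against 64.3%. Without NUP93-KO untreated replicate 2 the NUP93-KO count was 2, and without either untreated NONT library the NONT count stayed at 9. The count of members higher was 0 in each genotype, and 0 also at an unadjusted p under 0.05, while 0.0507%, 0.138% and 0.0796% of genes were higher. These shares of members, as fitted on all 12 libraries, are close to or below those of genes at large. No share of genes is given for the refits without a library. In bulk RNA, fewer cells of one kind and less RNA in each cell cannot be told apart.

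The median response of the 9 measurable members was −1.07 on the log2 scale in NONT, against −1.62 over all genes tested. It was −0.29 against −0.92 in NUP93-KO and −0.60 against −1.08 in EXOSC5-KO. The summed value of the 10 members was between 0.0919% and 0.101% of the gene sum in every library, so as a share of all measured mRNA the set stayed in a narrow range. Within it, the EXOSC5-KO libraries (0.0919% to 0.0939%), treated or not, lay below all NONT and NUP93-KO libraries (0.0976% to 0.101%).

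**Figure D2:**
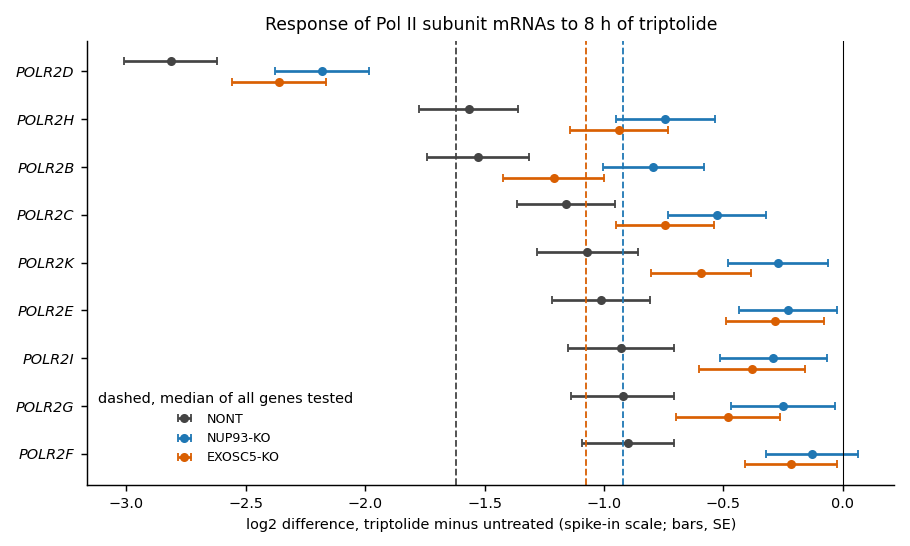
Log2 difference between triptolide-treated and untreated libraries (horizontal axis, spike-in scale) for 9 members, ordered by the NONT value. Points are fitted differences with SE bars in each genotype, and dashed lines are the medians of all genes tested (NONT −1.62, NUP93-KO −0.92, EXOSC5-KO −1.08). POLR2D alone lies well to the left of all the lines.

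Of the core, POLR2B (chr4:56977722-57031158, plus strand) encodes Rpb2, which forms the active centre with Rpb1. Its untreated value was 2989 and 4745 (NONT), 3472 and 3892 (NUP93-KO) and 3815 and 3644 (EXOSC5-KO). With triptolide it was 1495 and 1140, 2069 and 2171, and 1615 and 1604 in the same order. Every treated library was below every untreated one. The log2 response was −1.53 ± 0.21 (NONT), −0.79 ± 0.21 (NUP93-KO) and −1.21 ± 0.21 (EXOSC5-KO) (SE, n = 2 against 2, limma adjusted p = 5.65e-06, 0.00427 and 0.000107). POLR2B was thus close to the median gene in each genotype, with 53.3%, 54.7% and 45.1% of genes falling further.

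POLR2C (chr16:57462660-57472009, plus strand) encodes Rpb3, on which the core is assembled with Rpb11. In untreated cells it was 1421 and 2095 (NONT), 1417 and 1734 (NUP93-KO) and 1653 and 1554 (EXOSC5-KO). After triptolide the values were 831 and 719, 1025 and 1154, and 954 and 958. No treated library reached an untreated one. The response was −1.16 ± 0.20 in NONT (limma adjusted p = 7.10e-05), −0.53 ± 0.20 in NUP93-KO (limma adjusted p = 0.0379) and −0.75 ± 0.20 in EXOSC5-KO (limma adjusted p = 0.00457). In 2 of 22 alternatives the NUP93-KO response of POLR2C reversed. It was 0.041 when each library was scaled to the same total, and 0.38 with median-of-ratios scaling (limma adjusted p = 0.00136). In 9 others the lower call of POLR2C was lost with its direction kept. Its adjusted p (limma) was 0.270 without NUP93-KO untreated replicate 2, 0.211 and 0.0743 without the treated replicates 1 and 2, 0.0866 without the mean-variance trend, 0.0511 without the filter on low values and 0.0539 to 0.0574 without any 1 of the 4 EXOSC5-KO libraries.

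POLR2I (chr19:36113709-36115213, minus strand) encodes Rpb9, a jaw subunit with a part in the fidelity of transcription. Its untreated values were 491 and 711 (NONT), 539 and 571 (NUP93-KO) and 570 and 546 (EXOSC5-KO). Under the drug they were 348 and 276, 428 and 481, and 462 and 399. The treated pair lay below the untreated pair in each genotype. As fitted across all 12 libraries, only the NONT response passed the test (−0.93 ± 0.22, limma adjusted p = 0.00101), and those of NUP93-KO (−0.29 ± 0.22, limma adjusted p = 0.286) and EXOSC5-KO (−0.38 ± 0.22, limma adjusted p = 0.141) did not. The EXOSC5-KO response of POLR2I did pass with sample weights, with the 4 EXOSC5-KO libraries alone, without either untreated NONT library and with the mitochondrial mRNA sum (limma adjusted p = 0.0246, 0.0352, 0.0495 in both refits and 0.0344).

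The stalk genes parted. POLR2D (chr2:127843553-127858155, minus strand), which encodes Rpb4, was 1339 and 1599 (untreated NONT), 1297 and 1543 (NUP93-KO) and 1639 and 1558 (EXOSC5-KO). Triptolide left 198 and 216, 312 and 311, and 284 and 338. The highest treated value, 338, was far below the lowest untreated one, 1297. The response was −2.82 ± 0.20 in NONT (limma adjusted p = 2.24e-09), −2.18 ± 0.20 in NUP93-KO (limma adjusted p = 1.08e-07) and −2.36 ± 0.20 in EXOSC5-KO (limma adjusted p = 4.04e-08), so that 0.142, 0.220 and 0.195 of the untreated level remained. Relative to the median gene this was −1.20, −1.26 and −1.29 log2 units, and 22.5%, 21.1% and 19.6% of genes fell further still. POLR2D was lower in every alternative run, with adjusted p values (limma) from 9.12e-12 to 0.0416 over both scales and all genotypes.

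POLR2G (chr11:62761565-62766710, plus strand) encodes Rpb7, which binds Rpb4 in the stalk. It was 625 and 928 (untreated NONT), 633 and 810 (NUP93-KO) and 926 and 870 (EXOSC5-KO). With triptolide it was 423 and 381, 591 and 612, and 624 and 663. The groups did not overlap in any genotype, although in NUP93-KO the gap was narrow. The response was −0.92 ± 0.22 in NONT (limma adjusted p = 0.000839), with smaller values that did not pass in NUP93-KO (−0.25 ± 0.22, limma adjusted p = 0.345) and EXOSC5-KO (−0.48 ± 0.22, limma adjusted p = 0.0604). In EXOSC5-KO the POLR2G response passed under the same alternatives as that of POLR2I, with an adjusted p (limma) of 0.00654 with weights, 0.00553 in the 4 libraries alone, 0.0122 and 0.0123 without untreated NONT replicates 1 and 2, and 0.00759 with the mitochondrial sum.

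Within each library, the ratio of the POLR2D value to the POLR2G value does not depend on the spike-in. In untreated libraries it was 2.14 and 1.72 (NONT), 2.05 and 1.91 (NUP93-KO) and 1.77 and 1.79 (EXOSC5-KO). Under triptolide it was 0.468 and 0.569, 0.527 and 0.507, and 0.455 and 0.511. All 6 treated libraries were thus far below all 6 untreated ones, in each genotype. These values carry transcript length, so a ratio of 1 is not equal numbers of molecules. The ratio was chosen after the values were seen and was not tested.

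**Figure D3:**
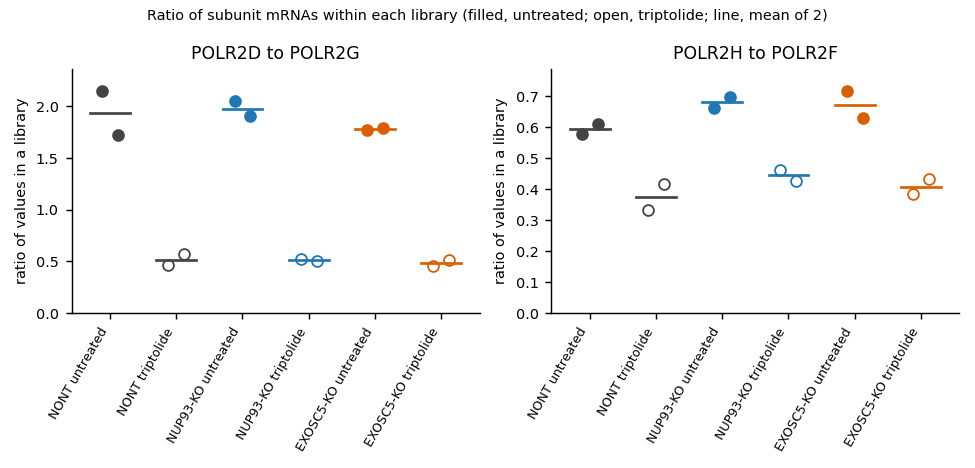
Ratio of 2 subunit values within each library (vertical axes from 0), for the stalk pair POLR2D to POLR2G and for the shared subunits POLR2H to POLR2F. Filled points are untreated, open points triptolide-treated and lines the means of 2. The stalk ratio fell from 1.72–2.14 to 0.455–0.569 and the POLR2H to POLR2F ratio from 0.578–0.715 to 0.334–0.461, with no overlap.

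The members shared by Pol I, Pol II and Pol III are POLR2E, POLR2F, POLR2H and POLR2K. POLR2H (chr3:184361710-184368596, plus strand), which encodes Rpb8, fell most of these. It was 681 and 934 (untreated NONT), 815 and 914 (NUP93-KO) and 797 and 722 (EXOSC5-KO). After triptolide it was 272 and 266, 507 and 523, and 365 and 430. The treated libraries were all below the untreated ones. The response was −1.57 ± 0.21, −0.74 ± 0.21 and −0.94 ± 0.21 in the 3 genotypes (limma adjusted p = 3.31e-06, 0.00574 and 0.000872), close to the median gene in each.

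POLR2E (chr19:1086574-1095380, minus strand) encodes Rpb5, which contacts the DNA ahead of the active centre. It was 1964 and 2647 (untreated NONT), 1862 and 1825 (NUP93-KO) and 2292 and 1700 (EXOSC5-KO). Treated values were 1272 and 1002, 1535 and 1609, and 1718 and 1528. The EXOSC5-KO groups overlapped, since the treated 1718 was above the untreated 1700. It passed the test in NONT (−1.01 ± 0.21, limma adjusted p = 0.000248) but not in NUP93-KO (−0.23 ± 0.21, limma adjusted p = 0.363) or EXOSC5-KO (−0.28 ± 0.21, limma adjusted p = 0.225).

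POLR2F (chr22:37952607-38041915, plus strand) encodes Rpb6, a clamp and assembly subunit. Without drug it was 1179 and 1530 (NONT), 1229 and 1312 (NUP93-KO) and 1115 and 1147 (EXOSC5-KO). With drug it was 814 and 637, 1101 and 1223, and 950 and 995. In NUP93-KO the treated 1223 was just under the untreated 1229. Its response was the nearest to 0 of the 9 in every genotype, −0.90 ± 0.19 in NONT (limma adjusted p = 0.000408), −0.13 ± 0.19 in NUP93-KO (limma adjusted p = 0.593) and −0.22 ± 0.19 in EXOSC5-KO (limma adjusted p = 0.319). Of all genes, 85.4%, 86.6% and 91.8% fell further than POLR2F.

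POLR2K (chr8:100150623-100154003, plus strand) encodes Rpb12, a small zinc-binding subunit. It was 607 and 859 (untreated NONT), 582 and 681 (NUP93-KO) and 700 and 694 (EXOSC5-KO). Under triptolide it was 364 and 324, 548 and 497, and 452 and 470. Treated and untreated values were separate in each genotype, by little in NUP93-KO. The response passed the test in NONT (−1.07 ± 0.21, limma adjusted p = 0.000188) and EXOSC5-KO (−0.60 ± 0.21, limma adjusted p = 0.0207) and not in NUP93-KO (−0.27 ± 0.21, limma adjusted p = 0.293). The EXOSC5-KO call of POLR2K was lost without any 1 of the 4 EXOSC5-KO libraries, with adjusted p values (limma) from 0.0749 to 0.104.

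The direction of these responses depends on the scale. The spike-in scale asks how much mRNA a cell holds, and it is the one on which 9, 4 and 5 members were lower. When each library was instead scaled by median of ratios, which sets the typical gene to no change, 1 member (POLR2D) was lower and 6 (POLR2C, POLR2E, POLR2F, POLR2G, POLR2I and POLR2K) were higher in each genotype. On that scale 30.3%, 29.7% and 28.7% of genes were lower and 27.2%, 26.7% and 26.2% were higher in NONT, NUP93-KO and EXOSC5-KO. Scaled to the sum of mitochondrially encoded mRNAs, 9, 9 and 7 members were lower, as were 81.2%, 76.5% and 75.1% of genes, and 0 members were higher (limma), against 0.0796%, 0.0724% and 0.0434%. With the library median subtracted, 1 member (POLR2D) was lower and 8 were higher in each genotype, but the median gene itself stood at 0.55, 0.46 and 0.47 there, and 45.3%, 43.3% and 43.3% of genes were called higher, while 20.1%, 20.7% and 19.8% were called lower. POLR2D was −0.65 ± 0.14, −0.80 ± 0.14 and −0.82 ± 0.14 on this median-gene scale. POLR2D was thus lost both per cell and relative to other mRNAs, and the 6 members named were lower per cell in NONT yet higher relative to the typical gene on the median-of-ratios scale.

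Transcript features that the choice of members did not use were compared. On the canonical transcripts of GENCODE v44, POLR2D had the longest 3′ untranslated region of the members, 4554 bases, longer than in 89% of 12995 genes. The others ranged from 46 bases in POLR2I to 2161 in POLR2E, with 0 annotated for POLR2A, and the median gene had 1370. ATTTA, the core of AU-rich elements that mark unstable mRNAs, occurred 9 times in that of POLR2D, 2 times in POLR2C and POLR2K, once in POLR2H and not in the other 6. At least 1 ATTTA was present in 73.9% of genes, and the median gene had 2. A longer region has more places for the word, and these counts were not divided by length. POLR2H, with 297 bases, had the next largest fitted loss in NONT (−1.57), close to that of POLR2B (−1.53) with 170 bases. The relation of 3′ length to the loss was not tested. Of the 31-base words of POLR2D, 14.4% also occurred in other genes, and 6.87% of those of POLR2E did. Summed over the transcripts of each other gene, CLCC1 had the most matches for POLR2D and KIAA0319L for POLR2E. Part of these values could thus be split with other genes in the quantification.

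The knockouts without drug were compared with untreated NONT next, to show whether either guide altered subunit mRNAs. On the spike-in scale 0 of 10 members were higher and 0 were lower in NUP93-KO (limma, 0 also at an unadjusted p under 0.05), where 0.0145% and 0.00724% of genes were. The 9 measurable members lay between −0.31 (POLR2E, 95% interval −0.74 to 0.13) and 0.11 (POLR2H, −0.32 to 0.55). In EXOSC5-KO the counts were again 0 and 0 (limma, 0 at an unadjusted p under 0.05), against 0.485% and 0.0362% of genes, with values between −0.25 (POLR2F, −0.66 to 0.16) and 0.24 (POLR2G, −0.22 to 0.69). The intervals leave room for changes of that width. On the median-gene scale, 0 members passed in NUP93-KO (limma, 0 at an unadjusted p under 0.05), where 0.42% of genes were lower and 0.478% higher, and POLR2F alone was lower in EXOSC5-KO at −0.34 ± 0.08 (limma adjusted p = 0.0390), where 3.46% of genes were lower and 2.23% higher. That call was lost in 12 of 18 alternatives, among them leaving out either untreated NONT library and the replicate block (limma adjusted p = 0.0543 with the block), and its adjusted p ranged from 0.0191 to 0.226 over them. Both comparisons used the same NONT libraries.

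With triptolide in both, NUP93-KO held more of 6 members than NONT (POLR2B, POLR2D, POLR2F, POLR2G, POLR2H and POLR2K), from 0.58 ± 0.22 for POLR2G (limma adjusted p = 0.0406) to 0.94 ± 0.21 for POLR2H (limma adjusted p = 0.00594), where 41.9% of all genes were higher. EXOSC5-KO held more of 3, POLR2D at 0.58 ± 0.20, POLR2G at 0.68 ± 0.22 and POLR2H at 0.56 ± 0.21 (limma adjusted p = 0.0297, 0.0236 and 0.0431), where 39.2% of genes were higher. The count of members lower was 0 in both (limma, 0 at an unadjusted p under 0.05), against 0.188% and 0.195% of genes. POLR2H, for example, was 272 and 266 in treated NONT, 507 and 523 in treated NUP93-KO and 365 and 430 in treated EXOSC5-KO, with no overlap. These counts changed when single libraries were left out, and the share of all genes is not given for each refit. For NUP93-KO the 6 became 9 without either untreated NONT library, where 53.1% of genes were higher in both refits, 1 without NONT triptolide replicate 2, 2 without NUP93-KO triptolide replicate 1 and 0 without NUP93-KO triptolide replicate 2. For EXOSC5-KO the 3 became 0 without NONT triptolide replicate 2 or either treated EXOSC5-KO library, and 7 without either untreated NONT library, where 51.6% of genes were higher.

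Scales that remove the shift shared by all genes gave other counts. With the same total per library or with median of ratios, 0 members were higher in either knockout, and 3.74% and 8.91% of genes were higher with the same total and 3.5% and 6.66% with median of ratios. With the same total 2.39% and 4.24% of genes were lower, and with median of ratios 2.66% and 7.74%, while the members lower were 0 for NUP93-KO and 2 for EXOSC5-KO on both scales. On the median-gene scale 0 members passed in NUP93-KO (limma, with 1 lower at an unadjusted p under 0.05), where 3.3% of genes were lower and 2.71% higher. In EXOSC5-KO 3 were lower, POLR2B at −0.41 ± 0.07, POLR2C at −0.41 ± 0.07 and POLR2F at −0.28 ± 0.08 (limma adjusted p = 0.00304, 0.00546 and 0.0452), where 9.96% of genes were lower and 5.2% higher. The POLR2F call was lost in 15 of 18 alternatives, with adjusted p values (limma) from 0.00874 to 0.197. The values of POLR2B in treated EXOSC5-KO, 1615 and 1604, were nonetheless above those in treated NONT, 1495 and 1140, on the spike-in scale.

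The difference in response itself was then tested. On the spike-in scale the fitted loss of the 9 members was smaller with the NUP93 guide than with the nontargeting one, by 0.63 (POLR2C, 95% interval 0.02 to 1.24) to 0.82 (POLR2H, 0.20 to 1.44) log2 units, but 0 of 10 members passed (limma, 8 higher at an unadjusted p under 0.05), as did 0.76% of all genes in that direction. For EXOSC5-KO the difference ran from 0.32 (POLR2B, −0.32 to 0.95) to 0.73 (POLR2E, 0.11 to 1.34), with 0 of 10 past the threshold (limma, 3 higher at an unadjusted p under 0.05) and 0.319% of genes. The share of all genes at an unadjusted p under 0.05 is not given. The median gene was shifted by 0.74 and 0.57 in the same 2 comparisons. Without NONT untreated replicate 1 the counts were 9 and 8 instead of 0 and 0, and 51% and 38.2% of all genes passed in that direction too. Without NONT triptolide replicate 1 the NUP93-KO count was 2, against 18% of genes, so that the counts turned on which NONT library was kept. On the median-gene scale 0 members passed in either knockout (limma, 0 in NUP93-KO and 1 in EXOSC5-KO at an unadjusted p under 0.05), where at most 0.0434% of genes did, and the values lay between −0.15 (POLR2C) and 0.04 (POLR2H) for NUP93-KO and between −0.31 (POLR2B) and 0.11 (POLR2E) for EXOSC5-KO. The labels do not say that replicates came from separate cultures, so these p-values measure the spread between these libraries, which may be technical.

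Other parts of the machinery give a frame for these values. Of the remaining Pol II subunit genes, which include POLR2J for Rpb11, POLR2L for Rpb10 and POLR2M for a Pol II-associated protein, 6 of 6 rows were lower in NONT, with a median of −1.01. POLR2J, the partner of POLR2C in assembly, was 658 and 991 in untreated NONT and 481 and 398 with triptolide. POLR2L was 973 and 1476 and then 754 and 610. POLR2J (−0.88 ± 0.22) and POLR2L (−0.82 ± 0.22) were nearer to 0 than each of the 9 measurable members (−2.82 to −0.90), and POLR2J2 (−1.85 ± 0.55) and POLR2J3, which are near-identical copies and share reads, are uncertain. In NUP93-KO and EXOSC5-KO 2 of 6 rows were lower in each, with medians of −0.48 and −0.42.

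The subunits that belong to the other polymerases and not to Pol II had larger median losses. All 8 Pol I genes were lower in each genotype, with medians of −3.18 for NONT, −1.72 for NUP93-KO and −2.36 for EXOSC5-KO, from −4.55 for POLR1H to −2.61 for POLR1E in NONT. Of 10 Pol III genes, 10, 8 and 8 were lower, with medians of −2.53, −1.42 and −1.69, from −3.62 for POLR3B to −0.58 for POLR3GL in NONT. The gene of the mitochondrial polymerase, POLRMT, and those of the mitochondrial transcription factors TFAM and TFB2M had a median of −2.01 in NONT. Of these, 3 of 3 were lower in every genotype. Thus the mRNAs of the subunits that Pol I and Pol III share with Pol II lay between −1.57 and −0.90 in NONT, less negative than the median of either list.

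Among proteins that act on Pol II, the response varied by group. The 14 assembly and import genes, which fold Pol II in the cytoplasm and bring it to the nucleus, had a median of −1.21 in NONT, close to that of the subunits, and ranged from −3.62 for GPN2 to −0.78 for PFDN2. Of these, 14 were lower in NONT, and the counts with the NUP93 and EXOSC5 guides were 6 and 8. Elongation and pausing factors (17 of 17 lower, median −1.58, from −5.64 for ELL to −0.90 for TCEA1) and genes for the ubiquitination of Rpb1 (15 of 15, median −1.52, from −4.70 for ARMC5 to −0.61 for ELOB) lay near the median gene. Initiation factors other than TFIIH (8 of 8, median −2.40, from −5.32 for GTF2E1 to −1.22 for GTF2F2) and the CTD phosphatases with the RPRD proteins (8 of 8, median −2.63, from −5.86 for CTDP1 to −0.94 for RPRD1A) lay below it. In NUP93-KO these 4 lists had 12, 7, 7 and 7 genes lower with medians of −0.75, −0.59, −1.95 and −1.79, and in EXOSC5-KO 15, 10, 8 and 8 with medians of −0.95, −0.89, −1.84 and −1.92. These lists were not tested against one another.

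**Figure D4:**
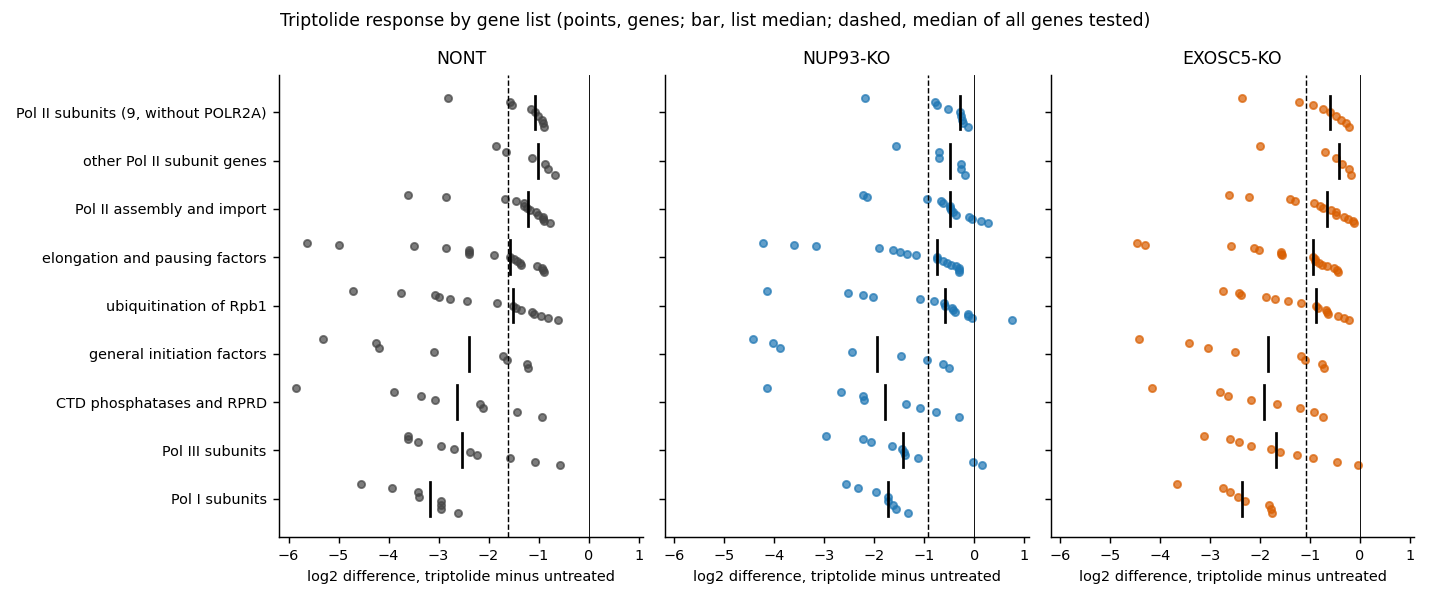
Log2 difference between triptolide-treated and untreated libraries (horizontal axis, spike-in scale) for each gene of 9 lists in the 3 genotypes. Points are genes, bars are list medians and the dashed line is the median of all genes tested. In NONT the 9 measurable Pol II subunits have a median of −1.07, to the right of the line at −1.62, and the Pol I subunits have one of −3.18.

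Levels were compared between members per kilobase of transcript, and their order turned on which transcript length was used. By the median annotated length in untreated NONT, POLR2B was highest at 6505 ± 2089 per kb (SD, n = 2). That length, 594.5 bases for POLR2B, is shorter than its coding sequence of 3522 bases. With the longest and the canonical transcript POLR2B stood at 941 and 1022 and was not the highest. By the median length, POLR2C at 2263 ± 614, POLR2F at 2260 ± 414 and POLR2E at 2146 ± 449 followed. POLR2I (1110 ± 287), POLR2D (1051 ± 131), POLR2H (982 ± 218), POLR2G (936 ± 259) and POLR2K (774 ± 188) were lower, and POLR2A (37.9 ± 43.8) was last. These SDs include the shift between the 2 untreated NONT libraries, which all members shared in direction. They are thus no measure of differences between members within a library. POLR2I, for example, was above POLR2K in both libraries (907 and 1312 against 641 and 907). POLR2B and POLR2C kept a place among the top 3 with the longest and with the canonical transcript, POLR2D and POLR2H were then the lowest apart from POLR2A, and POLR2I moved from 5th to 6th and 1st. Under triptolide POLR2D dropped from place 6 to 9 in NONT by the median length only. With the longest and the canonical transcript it was at place 9 in both untreated and treated NONT.

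The likeness of other genes to POLR2A and POLR2D was measured as the root mean square distance between profiles of log2(value + 1) over the 12 libraries, each centred on its mean, among 9463 genes with a mean of at least 100. For POLR2A the closest were FAN1 (1.23), ENSG00000262599 (1.345) and ALMS1 (1.37), distances too large to call a likeness, as its profile rests on so few reads. POLR2D was closest to DR1 (0.115), CUL3 (0.119) and FBXO11 (0.122). POLR2D was added after its values had been seen. The libraries of a group share their treatment and scale, so these distances are a description.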

How the data were processed

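Poly(A) RNA of U2OS pools was sequenced strand-specifically in 12 libraries, with ERCC spike-ins added by cell number. The authors pseudoaligned reads with kallisto 0.46.1 to GRCh38 transcripts, used tximport for gene totals, limited the table to protein-coding genes and scaled each library by a DESeq2 size factor computed on the 92 ERCC transcripts only. The deposited values are this spike-in-normalised signal, not counts. A fault in cell number or spike-in volume moves all genes of a library together. Transcript-level estimates split reads that genes share.

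Values were analysed as log2(value + 1) with limma 3.58.1 in R 4.3.3 (group means, eBayes with trend, two-sided, Benjamini-Hochberg over 13811 genes with an untreated mean of at least 10, threshold 0.05), with all 12 libraries sharing 1 estimate of the spread. A change is thus on the log2(value + 1) scale, which understates that of low genes. A median-gene scale subtracted each library's median log2 value. All 10 members passed the filter, POLR2A with an untreated mean made by few reads. Approximate reads came from the most frequent low value, the worth of 1 read (0.490 to 1.76); 20.5% to 29.4% of low values were whole multiples of it within 0.02, so no count model was used. The code was tested on simulated data. Other columns of samples were 0.

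Groups came from the sample labels. Every member was named, with the extreme members of each knockout contrast, the extreme genes of each list and the 3 genes most like POLR2A. Members and lists were chosen with earlier results of these data known. Alternatives were the pseudocount, filter, trend, weights, block, scaling, libraries left out and transcript length. Of the table's IDs, 19584 matched GENCODE v44 and 2795 did not. Figures were drawn with matplotlib 3.10.9.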

Additional observations from a re-analysis of the deposited data

How the results depend on the processing

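Each value was refitted under other settings and counted once per setting. Of these refits with a test, 1550 kept direction and side of the threshold, while 109 lost the call, 24 gained it and 75 reversed. Some refits cannot change the log2 difference, such as those without a library outside the comparison. The count that kept direction therefore overstates how stable the values are. Scaling, single libraries, the trend and the filter each changed some calls. No share of all genes is given for the triptolide responses with the same total per library. In those, 2, 2 and 2 members were lower and 5, 5 and 4 higher in NONT, NUP93-KO and EXOSC5-KO. With median of ratios it was 1, 1 and 1 lower and 6, 6 and 6 higher, and with the mitochondrial mRNA sum 9 were lower in NUP93-KO.

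Responses that reversed with the same total were, in NONT, POLR2C 0.18, POLR2E 0.33, POLR2F 0.44, POLR2G 0.41, POLR2I 0.41 and POLR2K 0.27, in NUP93-KO POLR2C 0.041, POLR2E 0.34, POLR2F 0.44, POLR2G 0.32, POLR2I 0.28 and POLR2K 0.30, and in EXOSC5-KO POLR2C 0.047, POLR2E 0.51, POLR2F 0.57, POLR2G 0.31, POLR2I 0.41 and POLR2K 0.20. With median of ratios they were, in NONT, POLR2B 0.12, POLR2C 0.49, POLR2E 0.64, POLR2F 0.75, POLR2G 0.73, POLR2H 0.082, POLR2I 0.72 and POLR2K 0.58, in NUP93-KO POLR2B 0.11, POLR2C 0.38, POLR2E 0.67, POLR2F 0.77, POLR2G 0.65, POLR2H 0.16, POLR2I 0.61 and POLR2K 0.63, and in EXOSC5-KO POLR2C 0.33, POLR2E 0.80, POLR2F 0.86, POLR2G 0.60, POLR2H 0.14, POLR2I 0.70 and POLR2K 0.48. These scalings by their construction remove the loss shared by all genes.

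For the treated knockouts against treated NONT, the 6 members higher in NUP93-KO became 0 with each of the 3 scalings and 2 without the trend, and the 3 in EXOSC5-KO became 0 with each scaling and without the trend and 5 with sample weights, while 2 members were lower there with the same total and with median of ratios. Reversed values in NUP93-KO were POLR2E −0.18, POLR2D −0.069, POLR2K −0.053 and POLR2G −0.073 with the same total, POLR2E −0.20, POLR2D −0.087, POLR2K −0.072 and POLR2G −0.092 with median of ratios, and POLR2E −0.12, POLR2D −0.0071 and POLR2G −0.012 with the mitochondrial sum. In EXOSC5-KO they were POLR2B −0.27 and POLR2H −0.014 with the same total, POLR2B −0.37, POLR2D −0.085 and POLR2H −0.11 with median of ratios, and POLR2B −0.53, POLR2G −0.15, POLR2D −0.25 and POLR2H −0.27 with the mitochondrial sum.

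Without drug, POLR2G in EXOSC5-KO became −0.14 with the mitochondrial sum, and 1 member (POLR2F) was lower there with median of ratios and with that sum. In the difference in response, POLR2C in NUP93-KO became −0.14, −0.12 and −0.031, and POLR2B in EXOSC5-KO −0.23, −0.26 and −0.14, with the same total, median of ratios and mitochondrial sum.

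Leaving out 1 library at a time gave 2 to 4 members lower in NUP93-KO and 4 to 7 in EXOSC5-KO under triptolide, 0 to 9 and 0 to 7 members higher in treated NUP93-KO and EXOSC5-KO against NONT, and differences in response in 0 to 9 and 0 to 8 members. POLR2F lower in untreated EXOSC5-KO on the median-gene scale stood at 0 to 1, and at 0 without the trend. Single values that reversed ranged from −0.11 to 0.34 (POLR2H, untreated NUP93-KO), −0.048 to 0.52 (POLR2G, untreated EXOSC5-KO), and −0.017 to 0.65 (POLR2B, difference in EXOSC5-KO). On the median-gene scale they were −0.094 to 0.027 (POLR2G, treated EXOSC5-KO), and in the differences −0.081 to 0.16 (POLR2H, NUP93-KO) and −0.054 to 0.26 (POLR2E, EXOSC5-KO). With no filter, 5 members rather than 3 were lower in treated EXOSC5-KO on that scale. The cause was not tested.

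Replicate numbers share only a name. Over 15 pairs of groups, the correlation of replicate differences lay between −0.051 and 0.037. The replicate block ended the calls of POLR2F in untreated and treated EXOSC5-KO on the median-gene scale (limma adjusted p = 0.0543 and 0.0578), leaving 0 calls in the former, and of POLR2H in treated EXOSC5-KO (limma adjusted p = 0.0552), and the triptolide counts stayed at 9, 4 and 5.

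Values per kb in untreated NONT became, with the longest transcript, 941 for POLR2B, 997 for POLR2C, 292 for POLR2D, 808 for POLR2E, 655 for POLR2F, 499 for POLR2G, 447 for POLR2H and 606 for POLR2I. With the canonical transcript, an alternative chosen after seeing the data, they were 1022 for POLR2B, 997 for POLR2C, 292 for POLR2D, 808 for POLR2E, 655 for POLR2F, 447 for POLR2H and 1358 for POLR2I. At 2 libraries a group, small responses cannot be separated from no change.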
